A study of Mus musculus with 120 samples.

Results

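The genes of the cytosolic translation initiation and elongation factors were followed through the activation of single mouse group 2 innate lymphoid cells (mILC2s). Members were the protein-coding genes whose symbols begin with Eif1 to Eif6, Eef1 or Eef2, without the Eif2ak kinases, and 63 of the 46078 genes in the count files met this rule. By name, 51 of the 63 genes belonged to initiation (Eif) and 12 to elongation (Eef). The 12 include 5 genes of elongation factor modifiers. The rule used names only and no measured value.

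mILC2s from the pooled mesentery of 20 wildtype C57BL/6 mice (tissue label: fat tissues) were kept in culture with IL-2, and single cells were picked by glass capillary while their cytokine secretion was imaged. Cells were recovered either before stimulation (labelled treatment "none" for the IL-5 index and "-" for the IL-13 index) or during incubation with IL-2/IL-33, at 30, 60 or 90 min after the onset of secretion (transition state), or later as secreting (activated) or non-secreting (silent) cells. This was done with IL-13 and, separately, with IL-5 as the secreted index cytokine, which gave 12 groups of index and state. Each group held 11 cells, except the pre-stimulation groups with 5 cells each, 120 cells in all. The sample titles give 2 dates per index, and the indexes share none. A difference between the indexes therefore cannot be told apart from one between dates.

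Each cell is 1 library and the labels name no animal or culture, so the cells of a group were summed and treated as 1 sample. No test between states was therefore possible and no p-value is given. Levels are counts per 1000000 gene reads (CPM) of the summed cells, with exact Poisson 95% intervals. These libraries have no molecular identifiers, so the intervals cover counting error only. CPM are shares of the reads, and the number of transcripts per cell is not known. Differences are log2 ratios of CPM of summed counts, in which a group with under 3 reads was set to 3 reads and a gene with 3 reads or fewer in both groups counted as not different. The range in square brackets after a log2 ratio is its lowest and highest value on leaving out any 1 cell of either group. A gene was called higher or lower where its groups differed at least 2-fold and still did so without any 1 cell. Calls were made for the 2658 genes that averaged 50 CPM or more across all 12 groups, which included 45 of the 63 members. Nearest the limit, Eif4g3 (60.8 CPM), Eif2b1 (60.8 CPM) and Eif4h (58.3 CPM) lay inside, and Eif4g1 (38.7 CPM), Eif2b5 (38.5 CPM) and Eif2b4 (38.2 CPM) lay outside. Because 10 of the 12 groups were stimulated cells, this limit favours genes that are high in stimulated cells, and shares of called members are read beside those of all genes that passed the same limit.

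Translation of a messenger RNA starts when eIF2 brings the initiator tRNA to the small ribosomal subunit, on which the eIF3 scaffold and the scanning factors sit. eIF4F, made of the cap-binding protein eIF4E, the scaffold eIF4G and the helicase eIF4A, loads this complex onto the capped end of the messenger RNA. eEF1 then delivers aminoacyl-tRNAs to the ribosome and eEF2 moves it along. Lymphocytes that leave rest raise protein synthesis and cell size, and ILC2s secrete large amounts of cytokine within hours of IL-33.

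The cells held 31016336 gene reads in total, and single cells held 65 to 785198 (median 254001). Pre-stimulation cells had 133373 to 306589 gene reads and activated cells 207246 to 465179. In 6 cells of the 90 min groups and the IL-5 30 min, 60 min and silent groups the total was below 84667, the median divided by 3. All 11 ILC2 markers passed the limit of 50 CPM, and they had reads in 46 (Il7r) to 120 cells (Ly6a), with Gata3 in 116 and Il1rl1 in 113. Their summed level was 12180 and 11608 CPM in the pre-stimulation groups of the IL-13 and the IL-5 index and 6115 and 8290 CPM in the activated groups, with 7 and 4 of the 11 called lower, among them Gata3, and 2 called higher in each. Of the markers of other cells, Cd4, Cd8a, Cd79a, Csf1r, Lyz2, Mcpt4 and Col1a1 had no read, while the endothelial gene Pecam1 was read in 77 cells at up to 175 CPM in a group. Fcer1a, of the mast cell list, was read in 15 cells, at 301 and 37.1 CPM in pre-stimulation and 48.5 and 233 CPM in activated cells of the IL-13 and the IL-5 index. Of 10 T cell markers 7 had a read, and their summed level was 1740 and 1884 CPM in the pre-stimulation groups of the IL-13 and the IL-5 index against 515 and 327 CPM in the activated groups. Cd3g was at 1128 and 1195 CPM before stimulation and had no read in activated cells, and Cd3e was read in 3 cells and Trac in 4. Trbc2 was read in 98 cells and stood at 581 and 573 CPM in pre-stimulation, 443 and 296 CPM in activated cells and 1362 CPM at 90 min with IL-13. Among B cell markers Ighm was at 276 and 235 CPM in pre-stimulation and 9.08 and 21.4 CPM in activated cells. The part of these shifts in the results was not tested.

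Factor genes were higher in activated than in pre-stimulation cells under both indexes. In the IL-13 index, 26 of 45 members (57.8%) were called higher and 0 lower, where 26.5% of all 2658 genes were called higher and 10.9% lower. In the IL-5 index, 21 members (46.7%) were called higher and 0 lower, beside 28.8% and 13.0% of all genes. The median log2 ratio of the members was 1.51 [1.45, 1.78] with IL-13 and 1.33 [1.06, 1.45] with IL-5, and that of all genes was 0.27 and 0.23. Pre-stimulation cells came only from the first of 2 title dates per index, and with the activated cells of that date alone the medians were 1.38 and 1.58.

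The same direction was called under both indexes for 14 members, where 13.8% of all genes were called higher in both. These were Eef1e1, Eif1ad, Eif1ax, Eif2b2, Eif2b3, Eif2s2, Eif3b, Eif3g, Eif3l, Eif4a1, Eif4ebp1, Eif4h, Eif5a and Eif6. The same 14 were also called in both indexes when the 10 pre-stimulation cells of the study served as one common base. Of all genes, 13.2% were called in both indexes on both bases. Among the 27 members with at least 200 CPM, 17 were called higher with IL-13 and 8 with IL-5, and among the 18 with less, 9 and 13. Of all genes with at least 200 CPM 23.2% were called higher in each index, and of those with less 28.0% and 31.3%, so that the 8 of 27 with IL-5 lay near the share of all genes.

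**Figure D1:**
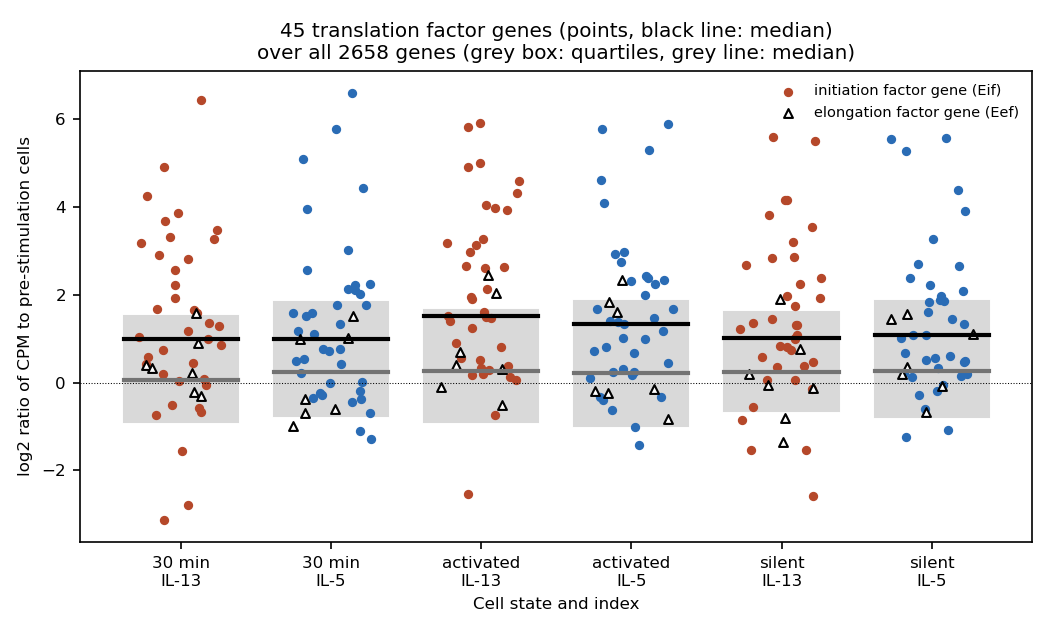
Log2 ratio of CPM to the pre-stimulation cells of the same index (y axis) for the 45 factor genes with at least 50 CPM, at 30 min and in activated and silent cells of the IL-13 and the IL-5 index (x axis). Filled points are genes named for initiation (Eif) and open triangles those named for elongation (Eef). Black lines are the members' medians, and grey boxes and lines are the quartiles and median of all 2658 genes. The members' medians lie between 1.00 and 1.51 and those of all genes between 0.05 and 0.27.

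The difference was already present 30 min after the onset of secretion. There 18 members were called higher and 2 lower in the IL-13 index, beside 22.3% and 9.93% of all genes, with a median log2 ratio of 1.00 [0.85, 1.32]. In the IL-5 index 17 were called higher and 0 lower, beside 27.2% and 9.41% of all genes, with a median of 1.00 [0.70, 1.11]. Higher in both indexes were 7 members, Eif2b2, Eif3g, Eif3j1, Eif3l, Eif4a1, Eif4h and Eif5a, where 10.1% of all genes were. With the pre-stimulation cells of both indexes as the base, 12 members were called higher with IL-13 and 15 with IL-5, beside 16.3% and 21.4% of all genes. Of the 7 members higher in both indexes, 5 remained, without Eif2b2 and Eif3l. Of all genes, 9.18% were called in both indexes on both bases. Both lower calls were in the IL-13 index, in Eif1b (-2.78) and Eif4g3 (-3.14), and Eif1b was also lower in its silent cells (-2.58).

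In silent cells, which had met the same cytokines without secreting, factor genes also stood higher than in pre-stimulation cells. With IL-13, 16 members were called higher and 2 lower (Eif1b and Eif3k), beside 22.8% and 7.52% of all genes. With IL-5, 19 were called higher and 0 lower, beside 26.1% and 9.89%. The medians were 1.01 [0.81, 1.16] and 1.08 [0.78, 1.24]. Higher in both were 7 members, Eif1ax, Eif2b1, Eif3b, Eif3l, Eif4a1, Eif4ebp1 and Eif5a, beside 8.58% of all genes. On the common base 11 and 13 members were called higher, beside 15.9% and 19.6% of all genes. Of the 7 members higher in both, 6 remained, without Eif2b1. Of all genes, 7.52% were called in both indexes on both bases. Among the 27 members with at least 200 CPM, 7 were called higher with IL-5 both at 30 min and in silent cells, near the 20.4% and 19.6% of all genes at that level.

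Across the 6 states, the lowest level was in pre-stimulation cells for 26 of 45 members with IL-13 and for 28 with IL-5, and for 31.9% and 39.3% of all genes, with ties at 0 given to the earliest state. The highest level was in activated cells for 18 and 11 members (20.2% and 16.0% of all genes) and at 90 min for 13 and 15 (15.5% and 16.9%). The pre-stimulation groups hold 5 cells against 11, and their part in these counts was not tested. The 3 comparisons with pre-stimulation cells share the same 5 pre-stimulation cells within an index, so their values are not independent.

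**Figure D2:**
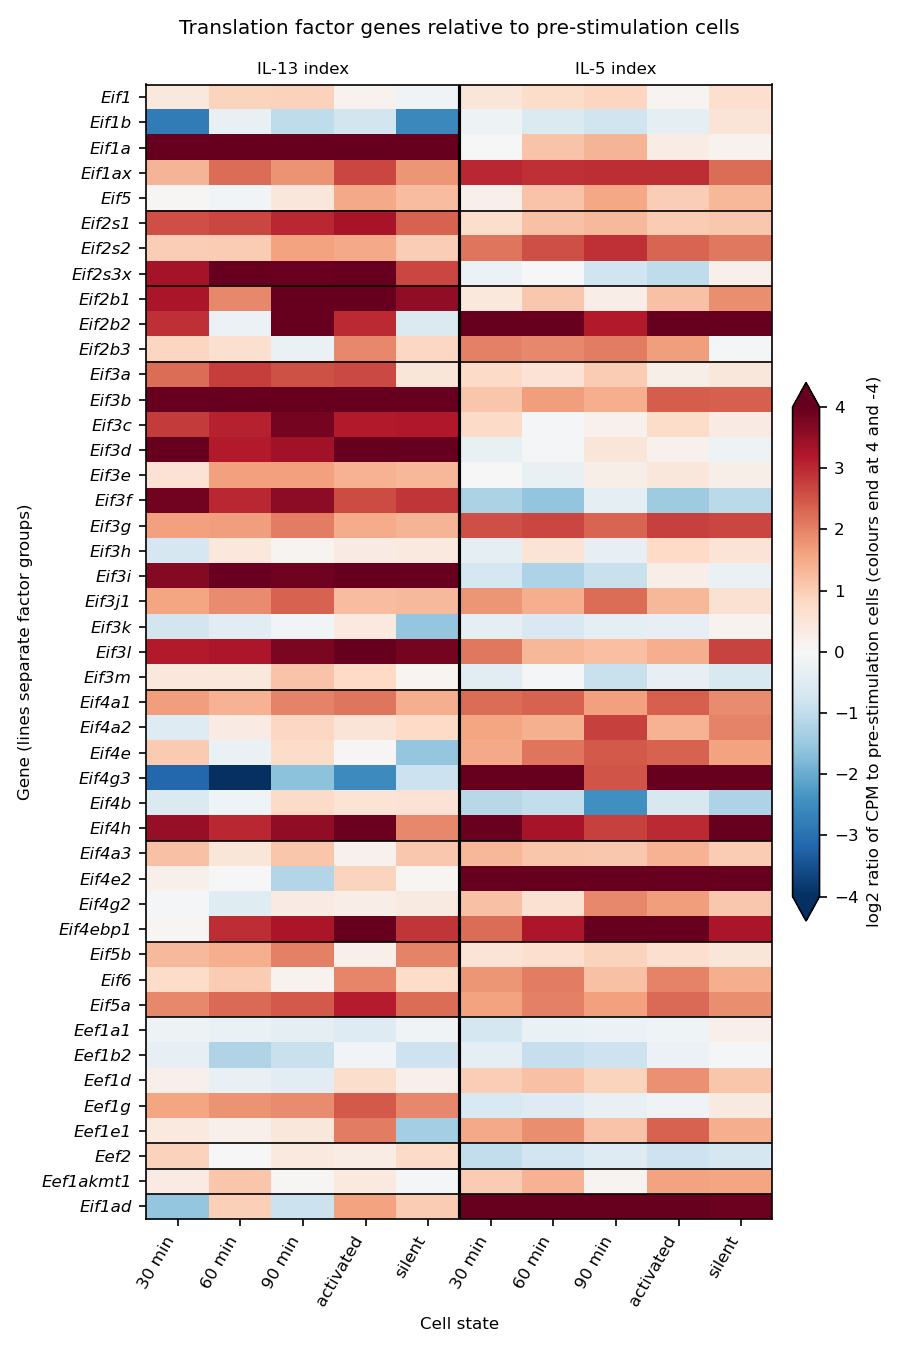
Log2 ratio of CPM to the pre-stimulation cells of the same index (colour, ending at 4 and -4) for each of the 45 factor genes (rows, grouped by factor) in the 5 stimulated states of both indexes (columns). Most eIF2, eIF2B and eIF5A entries are red in both indexes, while eIF3 is red mainly on the IL-13 side and eIF4 mainly on the IL-5 side.

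Initiation factors made up 38 of the 45 tested members. Of these, 24 and 18 were called higher in activated than in pre-stimulation cells, with medians of 1.77 [1.67, 2.36] and 1.36 [1.07, 1.55]. Of 7 members named for elongation, 2 and 3 were called higher, beside the 26.5% and 28.8% of all genes. Their medians were 0.40 [0.07, 0.72] and -0.16 [-0.30, 0.53]. The 7 include Eef1e1, a scaffold gene of tRNA synthetases, and Eef1akmt1, an elongation factor modifier. Eef1e1 was among those called in both indexes and Eef1akmt1 among those called with IL-5. The cytosolic ribosomal protein genes, 80 of 83 of which passed the limit, had medians of 0.09 [-0.13, 0.18] and -0.20 [-0.29, -0.10], with 3 and 2 called higher and 1 and 5 lower. At 30 min their medians were -0.41 and -0.46, beside 1.23 and 1.14 for the initiation members. The difference between these lists was not tested.

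Of the factors of subunit joining and peptide bond formation, Eif5a separated pre-stimulation from activated cells in both indexes. Eif5a (ENSMUSG00000078812, GRCm38 chr11:69916714-69921958, minus strand) encodes a hypusine-bearing factor that helps the ribosome form difficult peptide bonds. In the 5 pre-stimulation cells of the IL-13 index it was at 211, 136, 0, 0 and 213 CPM, and the lowest, median and highest of the 11 activated cells were 574, 1117 and 1661 CPM. In the IL-5 index the pre-stimulation cells were at 210, 94.6, 71.8, 556 and 215 CPM and the activated cells at 673, 1154 and 1513 CPM. Every activated cell was above every pre-stimulation cell in both indexes. The log2 ratio was 3.14 [2.86, 3.53] with IL-13 and 2.26 [1.99, 3.08] with IL-5.

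Of the 45 members, 1 in the IL-13 index (Eif5a) and 3 in the IL-5 index (Eif3g, Eif2s2 and Eif5a) had every activated cell above every pre-stimulation cell. Of all 2658 genes 0.715% and 2.6% did. At 30 min of the IL-13 index the cells did not overlap with pre-stimulation cells for Eif5a either. Without the cells below 84667 gene reads, nor did Eif5a and Eif2s1 at 90 min with IL-13 and Eif2s2 in silent cells with IL-5. The share of all genes was counted for activated cells only, so the other states have none to be set against. With IL-13 the summed level of Eif5a went through 478, 598 and 682 CPM at 30, 60 and 90 min. In the IL-5 index it went through 711, 947 and 735 CPM. Silent cells lay between, at 597 and 846 CPM.

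Eif6, whose product keeps the large ribosomal subunit from joining too early, was at 154 and 115 CPM in pre-stimulation and 594 and 454 CPM in activated cells (log2 ratios of 1.95 and 1.99). Eif5b, the factor that joins the ribosomal subunits, was called higher with IL-13 at 30 min (1.29) and in silent cells (1.98), but its activated cells were at 203 CPM beside 176 CPM before stimulation. Eif5b and Rev1 overlap on opposite strands, and the strand setting of the counting is not given in the sources used here. Reads from the stretch they share may therefore have been dropped or given to either gene. Genes on the opposite strand also overlap Eif1ad, Eif1b, Eif2s2, Eif3d, Eif3j1, Eif3m, Eif4a2, Eif4g3, Eif6 and Eef1b2, whose values are uncertain for the same reason.

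**Figure D3:**
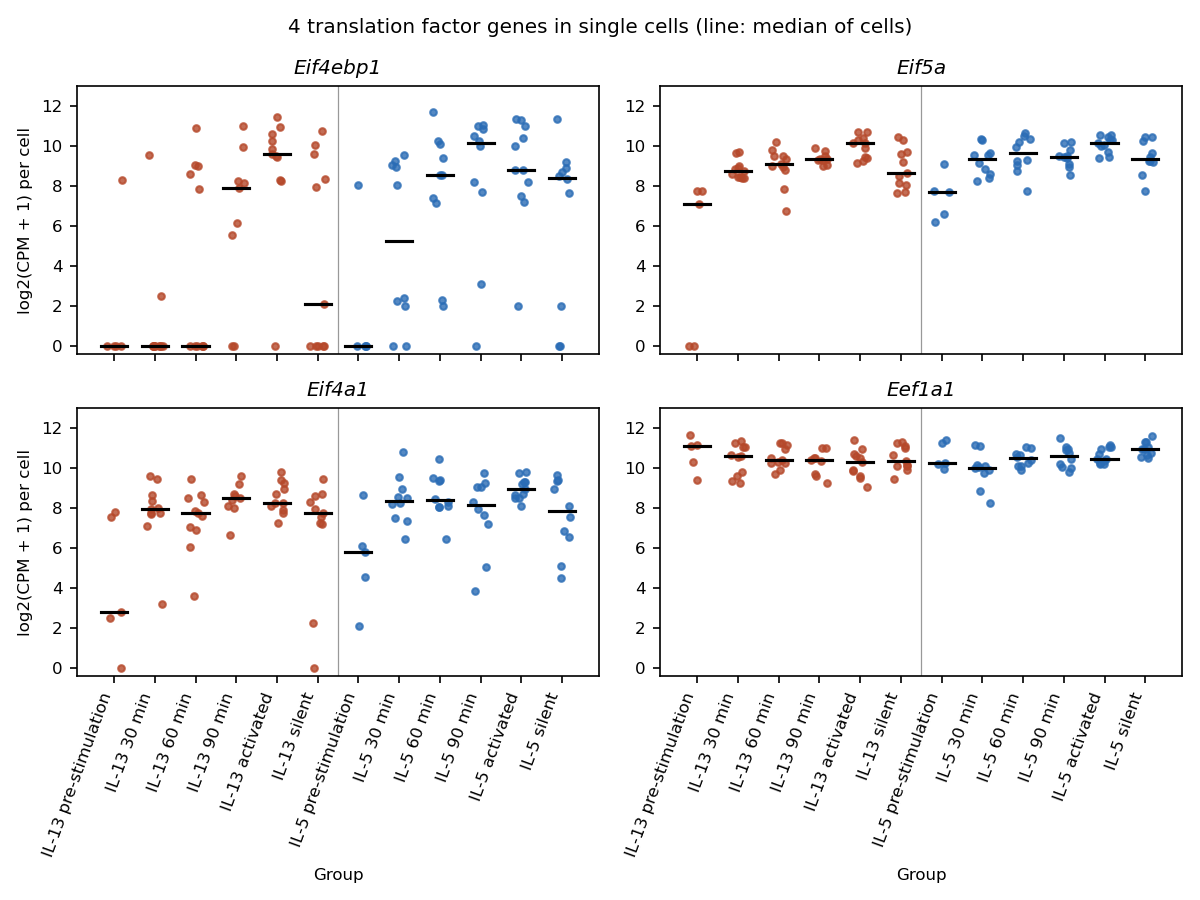
Level of Eif4ebp1, Eif5a, Eif4a1 and Eef1a1 in single cells (points) as log2(CPM + 1) (y axis) in each of the 12 groups (x axis), with IL-13 in brown, IL-5 in blue and lines at the medians of the cells. For Eif5a all activated cells lie above all pre-stimulation cells in both indexes, whereas for Eif4ebp1 the groups differ mainly in the share of cells with reads.

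Among eIF4F and its regulators, the repressor gene Eif4ebp1 was higher in activated cells of both indexes. Eif4ebp1 (ENSMUSG00000031490, GRCm38 chr8:27260329-27276674, plus strand) encodes a repressor that binds the cap-binding protein eIF4E until it is phosphorylated through mTORC1. In each index 1 of 5 pre-stimulation cells had reads, at 310 CPM with IL-13 and 264 CPM with IL-5, and the other 4 had none. Of the activated cells 10 of 11 and 11 of 11 had reads. Their lowest, median and highest values were 0, 781 and 2790 CPM with IL-13 and 3.04, 451 and 2630 CPM with IL-5. The groups overlap through the 1 positive pre-stimulation cell and the activated cells with few or no reads.

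The summed level of Eif4ebp1 rose from 52.9 CPM (39.4 to 69.5) to 1055 CPM (1020 to 1091) with IL-13, and from 57.7 CPM (45.0 to 73.0) to 995 CPM (963 to 1027) with IL-5. The log2 ratios were 4.32 [3.89, 8.14] and 4.11 [3.69, 8.30]. At 30, 60 and 90 min it was at 56.0, 411 and 506 CPM with IL-13. With IL-5 it was at 271, 548 and 1074 CPM. The 2 indexes, which share no title date, therefore differed at 30 min. There 2 of 11 cells with IL-13 and 8 of 11 with IL-5 had reads, and 1 cell of the IL-13 group held 99.3% of its reads. The 2 cells with IL-13 were at 4.72 and 761 CPM. With IL-5 some cells held few reads, at 3.79, 3.01 and 4.30 CPM, and the others with reads lay between 265 and 747 CPM. Eif4ebp1 was also the only member called lower at 30 min than in activated cells under both indexes (-4.23 and -1.88).

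Eif4a1 (ENSMUSG00000059796, GRCm38 chr11:69666936-69672423, minus strand), the main eIF4A helicase, was called higher in all 6 comparisons with pre-stimulation cells. The IL-13 pre-stimulation cells were at 191, 225, 0, 5.93 and 4.63 CPM, and the activated cells had a lowest, median and highest value of 153, 307 and 907 CPM. The IL-5 pre-stimulation cells were at 22.5, 3.26, 68.0, 54.6 and 397 CPM and the activated cells at 271, 496 and 902 CPM. The groups overlapped in both indexes, through 2 pre-stimulation cells with IL-13 and 1 with IL-5. The log2 ratio was 2.13 [1.78, 2.82] and 2.39 [1.98, 3.80]. Small nucleolar RNA genes lie within Eif4a1 on the same strand, and its paralog Eif4a2 was called higher with IL-5 (1.40) and not with IL-13 (0.52).

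Eif4e, the cap-binding protein itself, differed between the indexes. With IL-5 it rose from 52.0 to 265 CPM in activated cells (2.35 [1.93, 6.34]), and all 11 activated cells but 1 of 5 pre-stimulation cells had reads. With IL-13 it was at 116 CPM before stimulation and 121 CPM in activated cells. Eif4h, an eIF4A cofactor, was higher in activated cells of both indexes (3.93 and 2.98) from only 5 and 6 reads in pre-stimulation cells. Of the 6 measured genes of eIF4F and its cofactors, 2 were called higher with IL-13, near the 26.5% of all genes, and 5 with IL-5, beside 28.8%. Their summed level in activated cells was higher by 0.83 [0.66, 0.98] and 1.66 [1.36, 2.11].

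Several members of this group had no read in the 5 pre-stimulation cells of the IL-5 index. Against a floor of 3 reads over the group, Eif4e2, a cap-binding relative, was at least 59.2-fold and Eif4g3, a scaffold paralog, at least 24.6-fold higher in activated cells. In the IL-13 index their log2 ratios were 0.90 and -2.55 [-3.80, -0.55], neither called. With the pre-stimulation cells of both indexes as the base, Eif4e2 was still called higher in activated cells with IL-5 and Eif4g3 was not. Eif4g1, the main scaffold gene, was under 50 CPM and received no call.

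The E-box CACGTG is the sequence that MYC and its relatives bind, and it is shown for Eif4e and for those members called higher in activated cells of both indexes that held it. RefSeq promoter windows of GRCm38.p6, 250 bases before to 50 after the annotated start, were matched by symbol to 47 of the 63 members. CACGTG, which reads the same on both strands, lay in the windows of 12 of these, among them Eif4a1, Eif4h, Eif5a and Eif4e, and in the windows of 8.09% of all 27025 genes. Among genes with at least 50 CPM, 2106 of 2656 symbols had a window, and 13.8% of these held the motif. Of the 14 members called in both indexes 11 had a window and 3 held the motif, which also lay in windows of Eef2, Eef2k, Eif1b, Eif3a, Eif3f, Eif3k, Eif4g1 and Eif5a2. Because only 74.6% of the members had a window, the share over the members is void as a comparison. A match is a description of the letters and not of binding. The stretches below run 5′ to 3′ on the strand of the gene, with the E-box in capitals.
Eif4a1, chr11:69672595-69672624, minus strand: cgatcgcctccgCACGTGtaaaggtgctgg
Eif5a, chr11:69920791-69920820, minus strand: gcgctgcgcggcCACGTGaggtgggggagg
Eif5a, chr11:69921443-69921472, minus strand: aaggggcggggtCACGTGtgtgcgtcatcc
Eif4h, chr5:134639488-134639517, minus strand: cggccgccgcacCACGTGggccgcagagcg
Eif4e, chr3:138527028-138527057, plus strand: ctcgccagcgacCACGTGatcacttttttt
Eif4e, chr3:138527192-138527221, plus strand: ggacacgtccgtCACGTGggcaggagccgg
Eif4e thus carried the motif at 2 places of its window and Eif4h at 1, while Eif5a carried it at 2 places in the windows of different annotated starts. The members without a window were Eef1d, Eef1g, Eif2b3, Eif3e, Eif3h, Eif3i, Eif3j2, Eif4e1b, Eif4e3, Eif4ebp1, Eif4ebp3, Eif4g2, Eef1akmt1, Eef1akmt3, Eif1a and Eif6.

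Pdcd4, an inhibitor of the eIF4A helicase that is no member by name, was lower in activated cells. It was at 136 CPM in pre-stimulation and 15.7 CPM in activated cells with IL-13 (-3.12 [-4.40, -2.59]), and at 346 and 3.75 CPM with IL-5 (-6.53 [-8.62, -5.95]). Reads were found in 3 of 5 and 4 of 5 pre-stimulation cells against 3 of 11 and 2 of 11 activated cells. It was also lower in activated than in silent cells, by -2.93 and -4.12. At 30 min and in silent cells it was called lower with IL-5 (-2.45 [-3.41, -1.88] and -2.41 [-4.03, -1.83]) and not with IL-13 (-0.25 [-0.67, 0.28] and -0.19 [-0.62, 0.34]). The other measured genes of its signalling list, Rps6 and Rheb, were not called in activated over pre-stimulation cells, and Rheb was called higher at 30 min with IL-5 (1.98).

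The subunits of eIF2, the carrier of the initiator tRNA, were higher in sum under both indexes. The summed level of Eif2s1, Eif2s2, Eif2s3x and Eif2s3y went from 444 CPM before stimulation to 1720 CPM in activated cells with IL-13 (1.95 [1.76, 2.40]), and from 557 to 1562 CPM with IL-5 (1.49 [1.33, 1.67]). Of the 3 measured subunits, 3 were called higher with IL-13 and 1 with IL-5, a list too small to be set against the 26.5% and 28.8% of all genes. At 30 min the sums were already higher, by 1.36 [0.99, 1.80] and 1.30 [1.15, 1.49], and in silent cells by 1.29 and 1.43.

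Eif2s2, the beta subunit (GRCm38 chr2:154871410-154892935, minus strand), was at 492, 1001, 146, 142 and 162 CPM in the IL-13 pre-stimulation cells and at a lowest, median and highest of 39.1, 1049 and 1767 CPM in activated cells, so that the groups overlapped. With IL-5 the pre-stimulation cells were at 195, 300.1, 310, 126 and 0 CPM and the activated cells at 626, 1003 and 1525 CPM, without overlap. The log2 ratios were 1.51 [1.28, 2.10] and 2.33 [2.05, 2.61]. Eif2s1, the alpha subunit that stress kinases phosphorylate, rose from 56.0 to 545 CPM with IL-13 (3.28 [3.01, 3.97]) but was already at 261 CPM in the pre-stimulation cells of the IL-5 index, and its 1.03 [0.76, 1.32] there was not called.

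eIF2B, the exchange factor that recharges eIF2 with GTP, had 3 of 5 subunits above the limit. All 3 were called higher in activated cells with IL-13 and 2 with IL-5, which again is too short a list for a share. Eif2b2 had reads in 1 of 5 IL-13 and in 0 of 5 IL-5 pre-stimulation cells and in 6 and 7 of 11 activated cells. It was higher by 2.99 [2.56, 4.85] with IL-13 and at least 39.4-fold higher with IL-5. Eif2b1 was at least 32.0-fold higher with IL-13 and at 1.17 [0.75, 4.32], not called, with IL-5.

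The gamma subunit of eIF2 is encoded on both sex chromosomes of the mouse. The Y-linked copy Eif2s3y had 0 reads in 120 cells, and of the other Y-linked genes Ddx3y had 0, Kdm5d 1 and Uty 2 reads. The X-linked copy Eif2s3x had 2122 reads in 62 cells. In pre-stimulation cells it had 1 read with IL-13, and the log2 ratio of activated cells without the floor was 6.17, with a counting interval from 3.68 to 11.48. With IL-5 it went from 101 to 50.1 CPM (-1.01 [-1.56, -0.44], not called).

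Scanning and start codon factors behaved unequally. Eif1, which keeps the scanning ribosome from starting at wrong codons, was at 2336 and 2070 CPM in pre-stimulation and 2550 and 2238 CPM in activated cells (0.13 and 0.11). Between these states it was higher, at 4345 and 4414 CPM at 60 and 90 min with IL-13. At 60 min every cell lay above every pre-stimulation cell, and at 90 min 10 of 11 did, with the other, a cell of 50723 gene reads, at 1538 CPM. It was at 3411 and 3757 CPM at these times with IL-5, where the cells overlapped. The share of all genes with such separation was not counted at 60 and 90 min. None of these differences in Eif1 reached the call. Eif1ax was called higher in activated cells of both indexes (2.66 and 2.94), with reads in 2 and 1 of 5 pre-stimulation cells and in 10 and 11 of 11 activated cells. Eif1a, whose sequence is close to that of Eif1ax, had no read in IL-13 pre-stimulation cells and was at least 56.6-fold higher in activated cells, but was at 133 and 165 CPM with IL-5. Reads of such near copies could have been split or dropped in counting.

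In activated over pre-stimulation cells eIF3, the scaffold of initiation, had the most unlike ratios in the indexes of the 4 summed complexes. With IL-13 its summed level went from 2068 to 5659 CPM (1.45 [1.29, 1.60]). There 9 of 13 measured subunits were called higher in activated cells, beside 26.5% of all genes. With IL-5 the sum went from 4473 to 5463 CPM (0.29 [0.08, 0.62]), and 3 of 13 were called, near the 28.8% of all genes. The activated groups of both indexes were thus close, while the pre-stimulation groups were not.

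**Figure D4:**
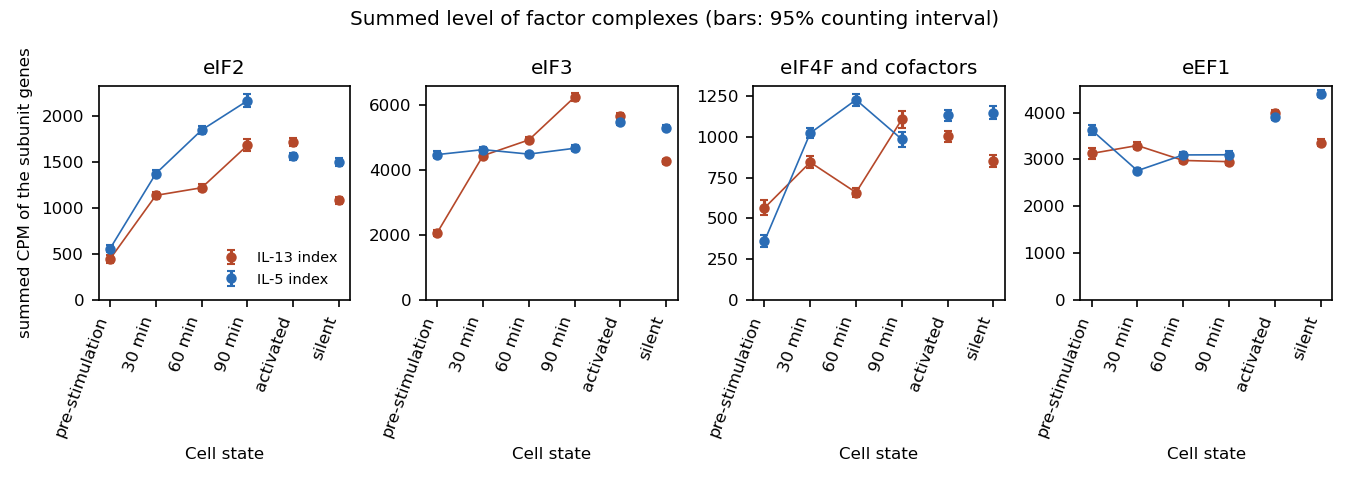
Summed CPM of the genes of eIF2, eIF3, eIF4F with cofactors and eEF1 (y axis) in the 6 states (x axis) of the IL-13 (brown) and the IL-5 index (blue), with exact Poisson 95% intervals as bars. For eIF3 the pre-stimulation groups stand at 2068 and 4473 CPM and the activated groups at 5659 and 5463 CPM. The eEF1 sum includes Eef1e1.

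Eif3b, Eif3g and Eif3l were the eIF3 members higher in activated cells of both indexes. Eif3g, which contacts the messenger RNA during scanning, was at 223, 379, 0, 521 and 0 CPM in IL-13 and 0, 310, 144, 0 and 0 CPM in IL-5 pre-stimulation cells. Activated cells had a lowest, median and highest of 0, 522 and 1306 CPM with IL-13 and 332, 772 and 1423 CPM with IL-5. The groups overlapped with IL-13 and did not with IL-5 (1.47 [1.11, 1.99] and 2.75 [2.35, 4.13]). Eif3b, a core scaffold subunit, had 4 reads in IL-13 pre-stimulation cells and rose to 252 CPM (5.93 [5.50, 6.06]), and with IL-5 rose from 42.9 to 232 CPM (2.44 [2.02, 6.20]).

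Eif3f and Eif3d show how few cells set the base. Eif3f had reads in 1 of 5 IL-13 pre-stimulation cells, at 204 CPM, and in all 5 of the IL-5 index, at 577, 418, 2077, 358 and 294 CPM. Its log2 ratio in activated cells was 2.60 [2.11, 6.11] with IL-13 and -1.42 [-1.80, -0.47], not called, with IL-5. Eif3d stood at 307 CPM in IL-5 pre-stimulation cells because 1 cell was at 1727 CPM and the other 4 at 0 to 3.78 CPM, so that its ratio of 0.17 became 6.84 without that cell. Over all 45 members, 10 differed at least 2-fold between the pre-stimulation groups of the indexes also on leaving out any 1 cell (22.2%), as did 21.4% of all genes. These were Eif1a, Eif1ad, Eif2s1, Eif2s3x, Eif3a, Eif3f, Eif3i, Eif4e2, Eif4g3 and Eef1g. With the pre-stimulation cells of both indexes as the base, 21 members were called higher in activated cells of each index, beside 22.0% and 24.0% of all genes, and 18 in both, beside 18.7%.

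Of the elongation factors, Eef1a1 (ENSMUSG00000037742, GRCm38 chr9:78478449-78489151, minus strand), which delivers aminoacyl-tRNAs, was at 670, 2323, 3193, 1262 and 2213 CPM in IL-13 pre-stimulation cells and at a lowest, median and highest of 540, 1283 and 2763 CPM in activated cells. With IL-5 the pre-stimulation cells were at 1185, 1226, 2723, 2452 and 1008 CPM and the activated cells at 1180, 1425 and 2258 CPM. The groups overlapped in both indexes and the log2 ratios were -0.52 [-0.80, -0.28] and -0.18 [-0.33, 0.04]. The summed level of the eEF1 genes, with Eef1e1 counted among them, differed by 0.35 [0.08, 0.52] and 0.11 [-0.01, 0.36].

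Of the exchange factor subunits that reload eEF1A, Eef1g was called higher with IL-13 (217 to 1191 CPM, 2.46 [2.20, 2.88]) and not with IL-5 (909 to 816 CPM). Eef1d was called higher with IL-5 (1.84 [1.45, 2.67]) and not with IL-13 (0.69 [0.41, 1.34]), and Eef1b2 in neither (-0.10 and -0.24). Eef1d overlaps Naprt on the same strand, so its values are uncertain. Eef1e1, which despite its name is a scaffold of the multi-tRNA synthetase complex, was higher in both (2.05 [1.77, 3.64] and 2.35 [1.93, 6.52]). Eef2, the translocase, was not called in activated cells (0.31 and -0.83), and at 30 min its log2 ratio was 0.91 [0.65, 1.32] with IL-13. With IL-5 it stood at 626 CPM before stimulation and 313 CPM at 30 min, a log2 ratio between -1.19 and -0.87 on leaving out any 1 cell and so not called.

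Messenger RNAs of elongation factors and ribosomal proteins often begin with a terminal oligopyrimidine (TOP) tract, through which mTORC1 controls their translation. A C within 5 bases of the annotated start, followed by at least 4 further pyrimidines, was searched on the gene strand and is shown for Eef1a1 and, as the longest tract among the members, for Eif3f. It was found in the windows of 9 of the 47 matched members, in 15.6% of all 27025 genes and in 36.5% of the 63 matched of 83 ribosomal protein genes, and both shares over lists are void for the same reason as above. The tract is in capitals.
Eef1a1, chr9:78481705-78481734, minus strand: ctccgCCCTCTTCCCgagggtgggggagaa
Eif3f, chr7:108934405-108934434, plus strand: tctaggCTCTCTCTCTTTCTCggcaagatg

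Fewer members were called between activated and silent cells. With IL-13, 8 members were called higher and 1 lower in activated cells, beside 12.0% and 12.5% of all genes, with a median log2 ratio of 0.51 [0.42, 0.63] against -0.01 for all genes. The higher ones were Eif2b2 (3.55), Eef1e1 (3.39), Eif3a (2.17), Eif4h (2.01), Eif3k (1.92), Eif1b (1.84), Eif4e (1.59) and Eif4ebp1 (1.47), and the lower one was Eif5b (-1.78). Within the first title date alone 3 of these 9 calls were kept and 1 had the opposite sign, with Eif1b at -0.16 and Eif3k at 0.35, and within the second date 8 were kept. The members' medians were 0.24 on the first and 0.72 on the second date.

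With IL-5, 2 members were higher and 1 lower in activated than in silent cells, beside 8.54% and 8.09% of all genes, with a median of 0.21 [0.14, 0.32] against -0.07. Eif1ad (1.88) and Eif2b3 (1.71) were higher and Eif4h was lower (-2.57 [-2.88, -1.40]). On the first date alone 0 of these 3 calls were kept and on the second 3, with medians of 0.13 and 0.29. Eif4h thus stood in opposite order in the indexes, at 79.2 CPM in activated and 19.6 CPM in silent cells with IL-13 and at 39.1 and 233 CPM with IL-5, where 1 silent cell was at 1210 CPM and its removal gave the ratio of -1.40. No member was called in the same direction under both indexes.

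At 30 min after the onset of secretion with IL-13, 0 members were called higher and 9 lower (20.0%) than in activated cells, beside 14.6% and 18.1% of all genes, so that the share of lower calls was near that of all genes, with a median of -0.59 [-0.85, -0.47] against -0.20 for all genes. The 9 were Eif4ebp1 (-4.23), Eif1ad (-3.17), Eif1b (-2.04), Eif2b1 (-1.74), Eef1e1 (-1.65), Eif5 (-1.47), Eif1ax (-1.30), Eif3i (-1.24) and Eif5a (-1.21). On the first date alone 3 were called higher and 7 lower, with 4 of the 9 kept, beside 326 and 561 of all 2658 genes. The second date gave 0 and 10, with 6 kept, beside 375 and 468 of all genes. DESeq2 size factors gave 2 and 6, beside 451 and 396 of all genes. With IL-5, 0 were called higher and 2 lower, Eif4ebp1 (-1.88) and Eif3b (-1.34), beside 12.8% and 10.8% of all genes, and the median was -0.18 [-0.33, -0.12]. On the first date alone 0 were called higher and 5 lower, beside 271 and 371 of all 2658 genes. The second date gave 0 and 7, beside 353 and 348 of all genes. On each date 1 of the 2 calls was kept.

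More factor genes were also found per cell after stimulation. Cells were thinned to 100000 gene reads each, which left out 7 shallower cells (3 at 90 min with IL-13 and 1 each at 30, 60 and 90 min and among silent cells with IL-5). The median number of the 45 members with a read was 18 in pre-stimulation and 41 in activated cells with IL-13, and 24 and 41 with IL-5, without thinning 18 and 42, and 26 and 42. Silent cells had 30 and 33.5. For activated cells the medians correspond to 91.1% of the members in both indexes, beside 66.0% and 68.4% of all 2658 genes. For pre-stimulation cells they correspond to 40.0% and 53.3%, beside 41.1% and 48.3% of all genes.

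**Figure D5:**
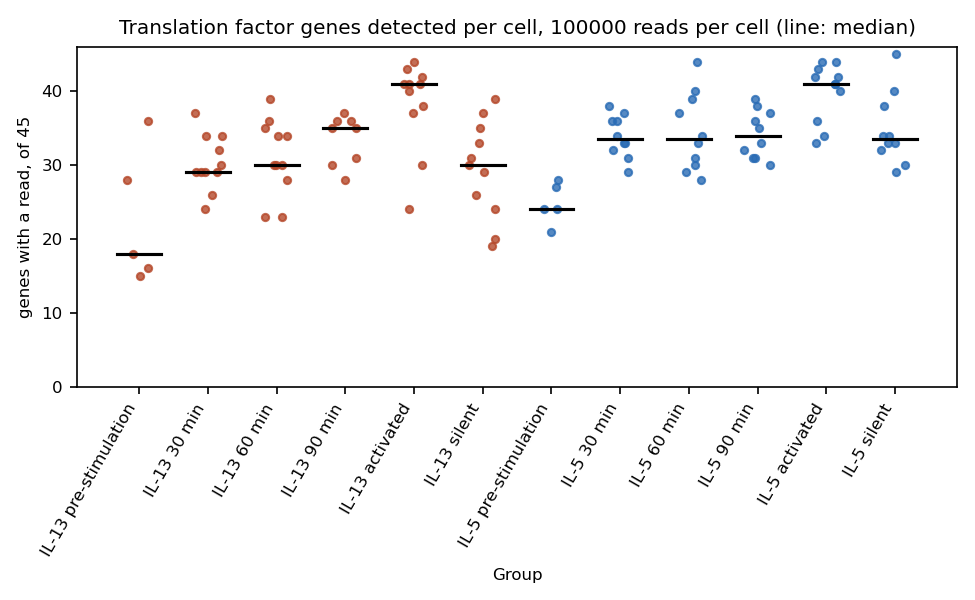
Number of the 45 factor genes with at least 1 read (y axis) in single cells thinned to 100000 gene reads (points), by group (x axis), with the median as a line. Medians go from 18 and 24 genes in the pre-stimulation groups of the IL-13 and the IL-5 index to 41 genes in both activated groups.

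Other genes of the translation machinery were taken from lists. Of 21 genes of the cytosolic aminoacyl-tRNA synthetases and their complex, 19 passed the limit, and in activated over pre-stimulation cells 12 were called higher and 1 lower with IL-13 and 8 higher and 0 lower with IL-5, with medians of 2.21 [1.94, 3.46] and 1.16 [0.89, 2.05], where 26.5% and 28.8% of all genes were called higher and 10.9% and 13.0% lower. The shorter lists that follow are too small to be set against these shares. Hars, Rars, Wars, Yars and Aars, which charge the tRNAs of histidine, arginine, tryptophan, tyrosine and alanine, were higher in both, and Vars was lower with IL-13 (-3.11). Of 3 measured genes of hypusine and diphthamide synthesis, which modify eIF5A and eEF2, 2 were higher with IL-13, Dhps at 3.39 and Dph5 at 2.58, and 1 with IL-5, Dph5 at 5.23. Of 5 measured poly(A) binding proteins and partners, 2 were higher in each index, Larp4 and Larp1 in both, and Paip2 was lower with IL-13 (-1.55). Of 4 measured termination and recycling factors, 1 and 2 were higher, with Gspt1, a release factor, higher in both. Tufm, the only measured gene of 9 mitochondrial translation factors, was higher in both. None of 6 genes for eIF2 alpha kinases and phosphatase subunits passed the limit.

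The 18 members without calls were mostly low or absent. Eef1a2, Eif2s3y, Eif3j2, Eif4e1b, Eif4ebp3 and Eef1akmt3 had 0 reads in 31016336, which allows a level of up to 0.0967 CPM. The other 12 were Eif2a, Eif2b4, Eif2b5, Eif2d, Eif4e3, Eif4ebp2, Eif4enif1, Eif4g1, Eif5a2, Eef1akmt2, Eef2k and Eef2kmt. All 63 members together held 1.88% of the gene reads, of which Eif1 and Eef1a1 held 24.6%.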

How the data were processed

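Single cells were recovered by live-cell imaging of secretion. Their cDNA (SMART-Seq v4 chemistry, transcript 3′ ends) was pooled in sets of 5 or 6 before tagmentation. Per the labels and the study's methods, the authors aligned read 1 to GRCm38 with TopHat and deposited HTSeq read counts per Ensembl gene, 1 file per cell. The annotation release and strand setting are not given in the sources used here. Libraries had 3892 spike-in copies added, and the files hold 0 spike-in entries. Of the alignments tallied, 62.0% lay in genes, 28.7% were not unique, 7.42% had no feature and 1.86% were ambiguous, and only gene counts entered totals.

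Symbols and coordinates came from GENCODE (GRCm38), which left 849 of 46078 identifiers unnamed (0.0886% of reads), and promoter windows from RefSeq (GRCm38.p6). Counts were summed per group and divided by the group's gene reads (Python 3.11.15, numpy 2.4.6, scipy 1.17.1, pandas 2.3.3, matplotlib 3.10.9). No test was run, since each group is 1 sample. Intervals are exact Poisson 95% for levels and Clopper-Pearson for ratios. The ratio step was tested on simulated data.

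The members, gene lists and comparisons were chosen with earlier results of these data known. Members of the main complexes could be named with their levels, and in each comparison the members with the 3 highest and 3 lowest log2 ratios and every member called, and other genes from lists only. Eif4h, Eif1ad and other members outside those complexes are named as called.

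Alternatives were scaling by edgeR 4.0.16 TMM or DESeq2 1.42.0 size factors (R 4.3.3) or by totals without cytokine genes, the mean of the cells' own CPM, pre-stimulation cells of both indexes, each title date, no shallow cells, limits of 10 or 200 CPM or none, calls without the leave-out condition, and each cell left out.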

Additional observations from a re-analysis of the deposited data

How the results depend on the processing

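No paired analysis was possible because no result comes from a test and replicate numbers only name cells. The stimulated states of an index share both title dates, and their comparisons within each date stand beside the results above. The second date was added after seeing the data. The 10 medians over the members tested kept their direction under every setting and on leaving out any 1 cell, with the ranges in square brackets above. Of 94 medians under other settings 69 moved by less than the spread over left-out cells and 25 by more, and the cause was not tested. With the pre-stimulation cells of both indexes, the medians of the IL-13 index over pre-stimulation cells were 0.81 at 30 min, 1.22 for activated and 0.77 for silent cells. With TMM factors they were 0.69 for activated over silent cells with IL-13, and with IL-5 1.36 at 30 min, 1.80 for activated and 1.46 for silent cells over pre-stimulation cells. TMM moved the median of all genes there by 0.36, 0.47 and 0.38. With DESeq2 size factors, IL-13 gave 1.44 for activated over pre-stimulation cells and -0.41 for 30 min over activated. On the first title date, activated over pre-stimulation cells gave 1.38 and 1.58, and activated over silent cells 0.24 and 0.13, and on the second date the latter gave 0.72 with IL-13. At 200 CPM or more, IL-13 gave 1.32 for silent over pre-stimulation cells and -0.45 for 30 min over activated, and IL-5 gave 0.49, 0.67 and 0.50 for 30 min, activated and silent over pre-stimulation cells. At 10 CPM or more silent over pre-stimulation cells gave 1.23 with IL-13, and without a limit 1.27, while 30 min over pre-stimulation cells gave 1.14 with IL-5. Without cytokine genes in the totals, IL-5 gave 1.45 for activated over pre-stimulation and 0.32 for activated over silent cells, and averaging the CPM of cells gave -0.36 for 30 min over activated.

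On the first title date the summed eIF3 ratio of activated over silent cells with IL-13 turned to -0.043, the eIF4F ratio of 30 min over activated with IL-13 to 0.10, and the eEF1 ratio of activated over silent cells with IL-5 to 0.27. The eEF1 ratio of 30 min over pre-stimulation cells with IL-5 turned to 0.14 when each cell's CPM was averaged. These were the 4 ratios of summed complexes that changed sign although their range over left-out cells did not. Another 61 moved beyond that range and 167 stayed within it.

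Of 144 member calls, 143 remained with TMM, 139 with DESeq2, 144 without cytokine genes in the totals, 131 when the CPM of cells was averaged and 110 on the first date. Of the 23 between stimulated states 8 remained on the first and 18 on the second date. Of the 121 against pre-stimulation cells, 81 remained with both indexes' pre-stimulation cells and 6 had the opposite sign, all with IL-13. The 200 CPM limit kept 74 calls by testing 27 members, and higher calls in activated over pre-stimulation cells became 17 in place of 26 with IL-13 and 8 in place of 21 with IL-5. Against pre-stimulation cells with IL-5 they became 7 in place of 17 at 30 min and 7 in place of 19 in silent cells. With IL-13, activated over silent cells gave 3 in place of 8, and 30 min over activated 5 lower calls in place of 9, or 16 without the leave-out condition. Where 2 or fewer members were called, other settings gave 0 to 7. Of all calls in activated over pre-stimulation cells with IL-5, 68.9% were higher, and 79.4% with TMM. With the pre-stimulation cells of both indexes the share with IL-13 was 55.6% in place of 69.2% at 30 min, 57.9% in place of 70.9% in activated and 60.4% in place of 75.2% in silent cells.

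Depth limits the pre-stimulation groups most, with 5 cells each and a floor of 3.11 and 2.47 CPM, so that genes without a read there could not be ranked by their change.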
